A study of Rattus norvegicus with 6 samples.

Results

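Selenoproteins carry selenocysteine, an amino acid inserted at a UGA codon that would otherwise stop translation, and most of those with a known activity are oxidoreductases. Several of them reside in the endoplasmic reticulum (ER), the compartment in which proinsulin folds and forms its disulfide bonds, and others, the glutathione peroxidases, remove hydroperoxides. The 10 selenoprotein genes described here were taken by name from 12603 genes measured on Affymetrix arrays. They are the ER residents Selenom, Selenof, Selenok, Selenot and Selenon, the glutathione peroxidases Gpx1, Gpx3 and Gpx4, the cytosolic Selenow and the secreted Selenop. All 10 were measured, by 13 probesets that each map to 1 gene symbol. Selenot, Selenon and Gpx4 had 2 probesets each, whose log2 values were averaged.

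The cells were INS-1 (insulin 2 C96Y-GFP), a line from a rat insulinoma that serves as a β-cell model. Doxycycline (Dox) induces in them the Akita mutant of proinsulin, which misfolds in the ER and activates the unfolded protein response (UPR). The 3 groups, all carrying this transgene and collected at 48 h, were an untreated one, one treated with Dox, and one treated with both Dox and 5 μM 4μ8c, which blocks the endoribonuclease of the ER stress sensor IRE1 and so the splicing of Xbp1 mRNA. Dox was at 4 μg/ml in the sample labels and at 2 μg/ml in the study's methods. All cells grew with β-mercaptoethanol, a reducing agent, and under G418 and hygromycin selection. The cells were 1 clone, and with the transgene in every group an effect of the drug Dox cannot be told apart from one of the mutant protein. Cells with 4μ8c but no Dox were not analysed here. Each of 2 independent experiments, which carry the replicate numbers 1 and 2, gave 1 array per group.

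The deposited log2 values lie around 0 for each probeset, so that they show differences between the arrays of an experiment and not levels. In experiment 1 the median of the 3 arrays was 0 in every probeset. In experiment 2 it was 0 in only 0.836%, and in 49.2% of probesets with 1 symbol a pair of arrays had equal and opposite values (within 0.0002), as a median over 4 arrays, 1 of them not analysed here, could give. An offset shared by the arrays of an experiment cancels in the differences used here. The level of a gene, its rank among genes and the presence of β-cell markers could therefore not be read from them, and RNA from fewer cells of a type cannot be told apart from less RNA per cell. In experiment 1, 25.5% of all probesets were at exactly 0 on all 3 arrays, against 1 probeset in experiment 2. Gpx1 and both Selenon probesets were among them, so that their changes in experiment 1 are exactly 0. The cause was not tested. The Dox array of experiment 2 had the largest SD over all probesets, 0.18, against 0.050 to 0.12 on the other 5. Centring differed between the experiments, so that SDs compare directly only within an experiment. In experiment 2 the SD was 0.11 on the untreated array and 0.087 with Dox+4μ8c. The 5′ minus 3′ log2 signal of 4 spike-in controls differed from the untreated array by -0.50 with Dox and -0.25 with Dox+4μ8c in experiment 2. In experiment 1 it differed by -0.13 and 0.04. The part of these differences in the results was not tested, and the values of each experiment are given below. Of 9 measured β-cell markers, 2 fell with Dox, beside 2.01% of all genes, Mafa by 0.56 and Iapp by 0.25 on the log2 scale. Without adjustment 5 of the 9 were lower at p under 0.05 (limma), beside 8.44% of all genes, and 1 of the 9 was above 0. The glucagon gene Gcg, from the α-cell list, fell by 2.22. Irx2, the other measured α-cell marker, did not pass the test. It was at 0.15, with exactly 0 in experiment 1 and 0.29 in experiment 2. None of the 4 measured acinar, fibroblast and macrophage markers passed the test in any comparison. Of these, Cpa1, Cela1 and Col1a1 were at exactly 0 on all 3 arrays of experiment 1. Cd68 differed in sign between the experiments with Dox (-0.065 and 0.45). The lack of a call therefore cannot show whether the share of such cells changed.

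The first comparison asked which selenoprotein mRNAs differ when mutant proinsulin is made. Selenom and Selenok rose with Dox, by 1.72 fold and 1.23 fold, and both encode ER proteins. No member fell. The members past the test were thus 2 of 10 in the direction of a rise, a direction in which 4.42% of all genes passed, and 0 of 10 in the direction of a fall, in which 2.01% did (limma, Benjamini-Hochberg adjusted p under 0.05 over 12603 genes). Without adjustment, 3 members were higher and 1 lower at p under 0.05, beside 11.2% and 8.44% of all genes. The median log2 change of the members was 0.09, beside 0.01 for all genes.

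Selenom encodes a thioredoxin-like protein of the ER lumen. Its centred log2 value was -0.02 and 0.04 in the untreated arrays of experiments 1 and 2, 0.69 and 0.90 in the Dox arrays, and 0.00 and -0.04 in the Dox+4μ8c arrays. Within each experiment the Dox array thus lay far above the others. The order of the untreated and Dox+4μ8c arrays differed between the experiments. The log2 change with Dox was 0.79 ± 0.07 (SE, 2 arrays per group, limma adjusted p = 0.0029), the 50th highest of all genes, with 0.71 in experiment 1 and 0.86 in experiment 2. It was the only member to change by 1.5 fold or more, as 0.968% of all genes did upward. Without the Dox array of experiment 2, which left 1 Dox array, the change was 0.69.

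Selenok encodes a small ER membrane protein that binds Derlins and the ATPase p97 in the removal of misfolded proteins, and that also serves as cofactor of the palmitoyl transferase ZDHHC6. Its centred log2 value was 0.00 and 0.03 in untreated cells, 0.30 and 0.34 with Dox, and -0.06 and -0.03 with Dox+4μ8c. The Dox array was again the highest within each experiment. The log2 change with Dox was 0.30 ± 0.05 (SE, limma adjusted p = 0.016), the 441st highest, and close to equal in experiment 1 (0.30) and experiment 2 (0.31). The call was lost when any 1 of the 4 untreated and Dox+4μ8c arrays was left out, with adjusted p of 0.060 without either Dox+4μ8c array, 0.096 without the untreated array of experiment 1 and 0.11 without that of experiment 2, while the change stayed at 0.30 to 0.31.

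The promoters of these genes are shown because both moved together with Dox and 4μ8c and because the UPR factors XBP1 and ATF6 are known to bind elements with the letters GACGTG or CCACG. The sequences are the 250 bases before the annotated start on the plus strand of RefSeq's rat assembly GRCr8, at chr14:82619203-82619452 for Selenom and chr16:5158351-5158600 for Selenok. Capitals mark GACGTG, and CCACG on either strand, which reads CGTGG on the minus strand.
Selenom: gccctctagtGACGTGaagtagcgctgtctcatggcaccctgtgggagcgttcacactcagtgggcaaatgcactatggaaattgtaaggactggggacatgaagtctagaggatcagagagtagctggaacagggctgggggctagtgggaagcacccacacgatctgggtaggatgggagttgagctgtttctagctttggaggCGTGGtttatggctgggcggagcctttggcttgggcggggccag
Selenok: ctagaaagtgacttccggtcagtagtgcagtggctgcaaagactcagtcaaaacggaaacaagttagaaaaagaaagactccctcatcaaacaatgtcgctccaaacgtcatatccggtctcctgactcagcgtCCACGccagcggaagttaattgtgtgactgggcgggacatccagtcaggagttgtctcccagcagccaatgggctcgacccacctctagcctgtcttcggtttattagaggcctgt

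The search covered both strands from 250 bases before to 50 bases after the start, for all 10 members. Of the members, Selenom alone held GACGTG, at bases -240 to -235 and again at 12 to 17 past the start, where it overlaps a CCACG match on the other strand. GACGTG was in 6.54% of all 27457 RefSeq promoters, and in 9.09% of the 10401 that belong to measured genes. CCACG was in 7 of the 10 members, in Gpx1, Gpx4, Selenow, Selenot and Selenof as well as in Selenom and Selenok, beside 45.9% of the promoters of measured genes. The longer elements TGACGTGG, the full ER stress response element (CCAAT, a fixed spacer, then CCACG) and the ER stress response element II (ATTGG, 1 base, then CCACG), which contain these letters, and the amino acid response element core TGATGNAA were found in none of the 10 windows. They were in 0.86%, 0.16%, 0.11% and 1.96% of the promoters of measured genes. A match describes the letters only, and the absence of one says nothing of the factor.

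Selenof, Selenot and Selenon, the other ER residents, did not pass the test with Dox. Selenof encodes a partner of UGGT1, the enzyme that senses unfolded glycoproteins. Its centred log2 value was -0.09 and 0.05 in untreated cells, 0.14 and 0.26 with Dox, and 0.00 and -0.05 with Dox+4μ8c. Within each experiment its Dox array was the highest of the 3. The log2 change of 0.22 ± 0.06 (SE) was similar in experiment 1 (0.23) and experiment 2 (0.21), with an unadjusted p of 0.011 and a limma adjusted p of 0.10.

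Selenot encodes an ER membrane protein with a thioredoxin-like fold. Its 95% interval for the log2 change with Dox ran from -0.15 to 0.11, and the experiments differed in sign (0.03 and -0.07). Its probesets disagreed on the untreated array of experiment 2, with centred values of 0.20 and 0.00. The probeset with the smaller adjusted p was at -0.06 with Dox and -0.19 with Dox+4μ8c, short of the threshold in both. The other had centred values of 0.00 and 0.00 in untreated cells, 0.05 and 0.00 with Dox, and 0.00 and -0.07 with Dox+4μ8c. Selenon, an ER membrane protein linked to calcium handling, had an interval from -0.06 to 0.19, with 0 in experiment 1 and 0.12 in experiment 2. Its probesets disagreed on the Dox array of experiment 2, with centred values of 0.20 and -0.02. The intervals of Selenot and Selenon lie wholly below the log2 changes of Selenom and Selenok. That of Selenon rests in part on its probesets at exactly 0 in experiment 1, so it cannot show that Selenon changed less than Selenok.

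The glutathione peroxidases are the cytosolic GPX1, the secreted GPX3 and GPX4, which reduces lipid hydroperoxides within membranes. None of the 3 passed the test with Dox. The log2 differences were 0.11 for Gpx1 (95% interval -0.05 to 0.26, with experiment 1 at exactly 0), 0.12 for Gpx3 (-0.0008 to 0.25) and 0.07 for Gpx4 (-0.10 to 0.24). Each of these was above 0, and each interval reached 0.

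The remaining members are Selenow and Selenop. Selenow, a small thioredoxin-like protein of the cytosol, had centred log2 values of 0.18 and 0.14 in untreated cells, -0.02 and -0.09 with Dox, and 0.00 and -0.02 with Dox+4μ8c. The untreated array was the highest of the 3 in both experiments. Its log2 change with Dox was -0.21 ± 0.05 (SE, limma adjusted p = 0.054), just short of the threshold. Selenow passed when each array was centred on its median (adjusted p = 0.04999) or when the probesets at 0 throughout experiment 1 were left out (adjusted p = 0.047). It did not pass in any other alternative with a test. The adjusted p was 0.057 without the replicate block and 0.093 with single probesets. As single arrays were left out the change was -0.23 to -0.19, again without a call. Selenop, the plasma carrier of selenium, was at 0.0032 with Dox (95% interval -0.13 to 0.14).

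**Figure D1:**
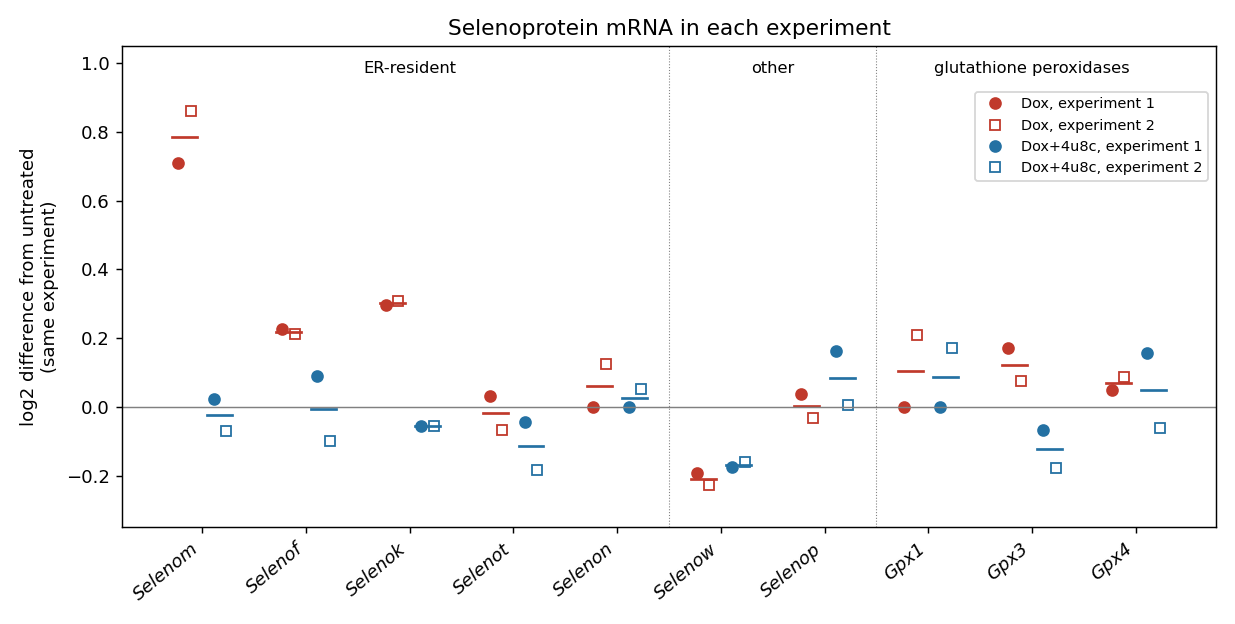
Log2 difference from the untreated array of the same experiment (y axis) for each of the 10 selenoprotein genes (x axis), with Dox in red and Dox+4μ8c in blue. Filled circles are experiment 1, open squares experiment 2 and short bars their mean. Selenom with Dox stands at 0.71 and 0.86, Selenok at 0.30 and 0.31, and the blue points of both genes lie near 0.

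The second comparison asked whether these differences from untreated cells were also seen when IRE1 was inhibited. It shares the untreated arrays with the first. None of the 10 members passed the test in Dox+4μ8c against untreated cells, in which 1.17% of all genes were higher and 1.13% lower. Without adjustment 1 member was lower and 0 were higher at p under 0.05, beside 9.15% and 6.27% of all genes. The median log2 change of the members was -0.01, beside -0.0018 for all genes. Among the cell markers Gcg was again lower, by -1.36 (limma adjusted p = 0.0061), and Irx2 was at 0.08, without a call. The β-cell markers went both ways, with 4 of 9 above 0 and none past the test. Mafa was at 0.06, Iapp at -0.23 (limma adjusted p = 0.083) and Nkx6-1 at 0.28 (adjusted p = 0.059).

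Selenom was at -0.02 on the log2 scale (95% interval -0.19 to 0.14), with 0.02 in experiment 1 and -0.07 in experiment 2. Selenok was at -0.06 (-0.17 to 0.05) and Selenof at -0.0054 (-0.16 to 0.14). For Selenom and Selenok the upper ends of these intervals lie below the lower ends of those with Dox alone, at 0.62 and 0.19. Selenow remained below untreated in both experiments, at -0.18 and -0.16, and its change of -0.17 ± 0.05 (SE) had a limma adjusted p of 0.15. Selenot was at -0.11 (-0.24 to 0.02) and Gpx3 at -0.12 (-0.25 to 0.0020), and the remaining 4 members lay between 0.03 and 0.09.

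The third comparison set Dox+4μ8c directly against Dox. Selenom and Selenok fell, to 0.571 and 0.780 of their signal with Dox alone, and no member rose. In the same comparison the β-cell factor Mafa rose by 0.62 (limma adjusted p = 0.019) and Gcg by 0.86 (adjusted p = 0.021), the highest of all genes. The α-cell marker Irx2 was at -0.06, without a call. All 9 measured β-cell markers lay above 0, and 4 of them had an unadjusted p under 0.05, beside 2.79% of all genes. The part of these marker changes in the members' results was not tested. The members past the test were 2 of 10 downward, beside 1.61% of all genes, and 0 of 10 upward, beside 0.175%. Without adjustment 4 members were lower and 0 higher at p under 0.05, beside 8.44% and 2.79% of all genes. The median over the members was -0.07 on the log2 scale, beside -0.01 for all genes.

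For Selenok the log2 change was -0.36 ± 0.05 (SE, limma adjusted p = 0.023), with -0.35 in experiment 1 and -0.36 in experiment 2. For Selenom it was -0.69 and -0.93 in the same experiments, which placed it 10th from the lowest of all genes. Both calls rest on the pair of Dox+4μ8c arrays, while the changes kept their direction without either of them. Without that of experiment 1 the log2 change was -0.89 for Selenom and -0.36 for Selenok. Without that of experiment 2 it was -0.72 and -0.36. Without the Dox+4μ8c array of experiment 1 the adjusted p was 0.064 for Selenom and 0.19 for Selenok, and without that of experiment 2 it was 0.25 and 0.39. With single probesets tested in place of genes it was 0.059 for Selenom and 0.069 for Selenok.

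The other 2 members with an unadjusted p under 0.05 were Selenof and Gpx3. Selenof differed by -0.23 ± 0.06 (SE, limma adjusted p = 0.20), with -0.14 in experiment 1 and -0.31 in experiment 2. Gpx3 had centred log2 values of 0.00 and 0.09 in untreated cells, 0.17 and 0.16 with Dox, and -0.07 and -0.09 with Dox+4μ8c. Its Dox+4μ8c array was the lowest of the 3 and its Dox array the highest in both experiments. The log2 difference between Dox+4μ8c and Dox was -0.25 ± 0.05 (SE, limma adjusted p = 0.094). Gpx1 (95% interval -0.17 to 0.14), Gpx4 (-0.19 to 0.15), Selenot (-0.23 to 0.03), Selenon (-0.16 to 0.09), Selenow (-0.07 to 0.16) and Selenop (-0.05 to 0.22) all had intervals that include 0.

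Of all genes, 161 were both higher with Dox and lower with Dox+4μ8c than with Dox alone, which is 1.28%. Selenom and Selenok were 2 of these. Both calls use the same Dox arrays, so that a high value there moves a gene toward both.

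**Figure D2:**
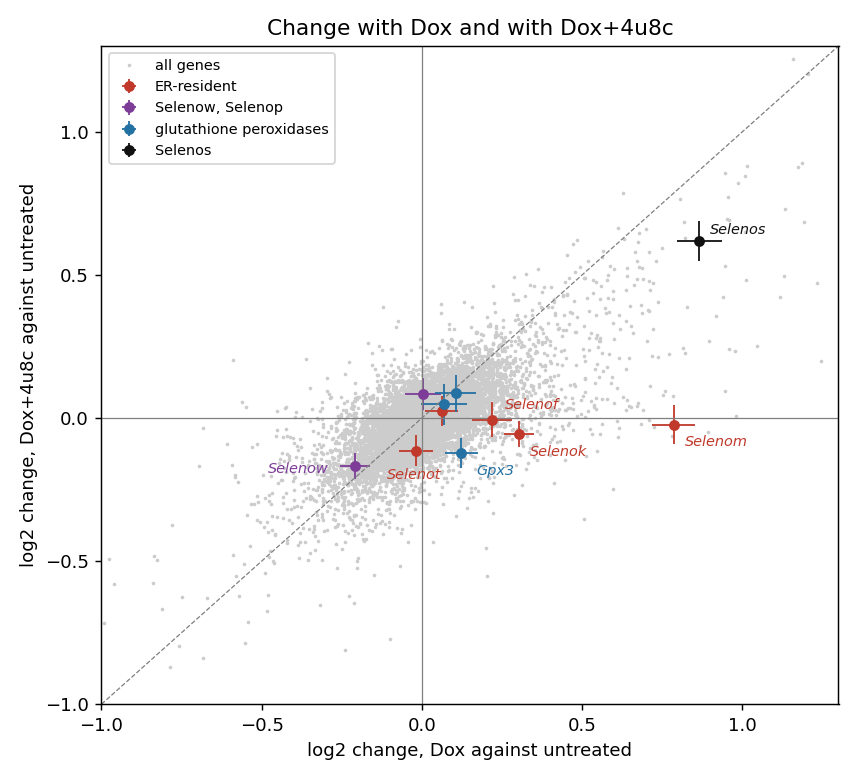
Log2 change of every gene (grey) and of the named selenoprotein genes (coloured, bars are SE) with Dox (x axis) and with Dox+4μ8c (y axis), both against untreated cells, so that the axes share the untreated arrays. The dashed line marks equal change, and 16 genes lie outside the axes. Selenom and Selenok lie right of 0 on the x axis and near 0 on the y axis, and Selenos lies far above 0 on both.

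The ER residents and the glutathione peroxidases were then set side by side, as a description without a test. Only members were used, so that the ER mean leaves out Selenos, an ER selenoprotein described below. Selenos was at 0.87 with Dox and 0.62 with Dox+4μ8c, both against untreated cells, so the values depend on the genes chosen. The mean log2 change with Dox of the 5 ER residents was 0.25 in experiment 1 and 0.29 in experiment 2, and that of the 3 peroxidases 0.07 and 0.12. The ER mean was higher by 0.18 and 0.16. With Dox+4μ8c against untreated cells the ER mean was lower than the peroxidase mean, by -0.03 and -0.05, and between Dox+4μ8c and Dox by -0.21 in both experiments. Most of the gap came from Selenom. Without it, the ER mean exceeded the peroxidase mean with Dox by 0.06 and 0.02, and the gap between Dox+4μ8c and Dox was -0.10 and -0.07. The change within the ER group was thus uneven, from -0.02 for Selenot to 0.79 for Selenom with Dox. The peroxidases ranged from 0.07 to 0.12 there, where Gpx1 was at exactly 0 in experiment 1 and at 0.21 in experiment 2. Elsewhere the peroxidases were less even, from -0.12 to 0.09 with Dox+4μ8c against untreated cells. Between Dox+4μ8c and Dox they ran from -0.25 to -0.02, with Gpx3 (-0.25) beside Selenof (-0.23) of the ER group.

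**Figure D3:**
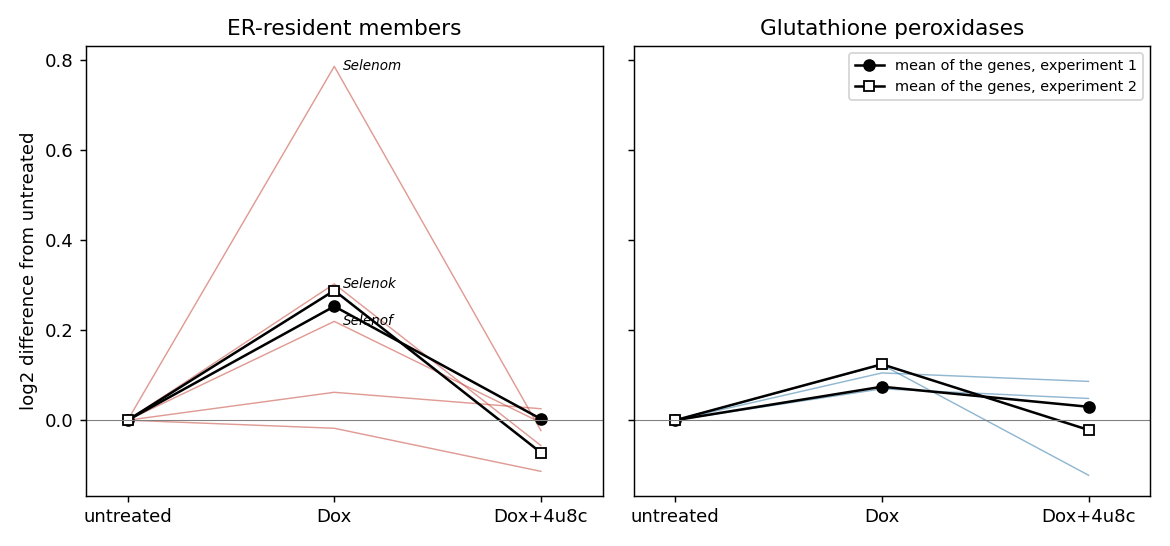
Log2 difference from untreated cells (y axis) in the 3 groups (x axis) for the 5 ER-resident genes (left, thin red lines) and the 3 glutathione peroxidases (right, thin blue lines). Black lines are the mean of the genes in experiment 1 (filled circles) and experiment 2 (open squares). The ER mean reaches 0.25 and 0.29 with Dox, drawn up by Selenom, and the peroxidase mean 0.07 and 0.12.

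Of 14 other selenoprotein genes, 10 were measured and 1, Selenos, rose with Dox, beside 4.42% of all genes. SELENOS is an ER membrane protein that, like SELENOK, links p97 to the Derlins. Its centred log2 value was -0.75 and -0.24 in untreated cells, 0.19 and 0.54 with Dox, and 0.00 and 0.24 with Dox+4μ8c. In both experiments the untreated array was the lowest and the Dox array the highest. The log2 change was 0.87 ± 0.07 (SE, limma adjusted p = 0.0025) with Dox and 0.62 ± 0.07 (adjusted p = 0.016) with Dox+4μ8c, and the difference between these, -0.25 ± 0.07, had an adjusted p of 0.21. With Dox+4μ8c, Selenos kept 71.3% of its log2 change, while the intervals of Selenom and Selenok with Dox+4μ8c include 0. The difference between the genes was not tested. In a fit without the replicate block, which leaves the offset between the experiments in the spread, the adjusted p for Selenos was 0.074 with Dox and 0.21 with Dox+4μ8c. The latter call was also lost without either Dox+4μ8c array (0.18 and 0.10 for experiments 1 and 2), without the untreated array of experiment 1 (0.080) and with single probesets (0.052).

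The other 9 did not pass in any comparison. With Dox, Selenoi, which makes phosphatidylethanolamine, was at 0.19 (adjusted p = 0.078), Sephs2, which makes the selenium donor for selenocysteine, at 0.10, the methionine sulfoxide reductase Msrb1 at 0.07 and Txnrd1, the cytosolic thioredoxin reductase, at 0.03. Selenoh was at -0.0031, the mitochondrial reductase Txnrd2 at -0.02, Txnrd3 at -0.08, and the deiodinases Dio1 and Dio3, which act on thyroid hormone, at -0.04 and -0.06. Msrb1 and Dio1 were among the genes at exactly 0 throughout experiment 1.

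All 14 genes listed for the synthesis of selenocysteine and the supply of selenium were measured. Beside 4.42% of all genes, 2 of the 14 rose with Dox. These were Sars1, the seryl-tRNA synthetase that also charges the selenocysteine tRNA, by 0.75 ± 0.08 on the log2 scale (SE, limma adjusted p = 0.0049), and Cth, the transsulfuration enzyme cystathionine γ-lyase, by 0.83 ± 0.10 (adjusted p = 0.0079). Both also serve general amino acid metabolism. Sars1 was higher with Dox+4μ8c too, by 0.60 (adjusted p = 0.022), and Cth was at 0.39 (adjusted p = 0.13). Without the replicate block the adjusted p of Sars1 was 0.12 with Dox and 0.26 with Dox+4μ8c. The call with Dox+4μ8c was lost without any 1 of the Dox+4μ8c and untreated arrays, at adjusted p of 0.089 to 0.19, and without either Dox array Cth passed with Dox+4μ8c (adjusted p = 0.011). The factors dedicated to selenocysteine did not pass, and with Dox they lay at 0.02 for Pstk, 0.11 for Sepsecs, 0.02 for Secisbp2, -0.10 for Eefsec, -0.03 for Trnau1ap, 0.01 for Sephs1 and -0.18 for Secisbp2l. Secisbp2l, a relative of the selenocysteine insertion factor Secisbp2, had an unadjusted p of 0.038 (limma adjusted p = 0.22), and passed as lower when the Dox array of experiment 1 was left out. Scly, which frees selenium from selenocysteine, was at 0.26 (adjusted p = 0.16).

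Of 10 peroxidases that carry cysteine in place of selenocysteine or whose selenocysteine differs between species, 7 were measured and none passed in any comparison. The smallest p with Dox was that of Prdx6, at 0.17 (limma adjusted p = 0.10, unadjusted p = 0.011). With Dox+4μ8c against untreated cells, Prdx5 was at -0.16 (adjusted p = 0.20) and Prdx4, the ER peroxiredoxin, at -0.12 (adjusted p = 0.29). Gpx8, another ER peroxidase, was at -0.11 between Dox+4μ8c and Dox (adjusted p = 0.50).

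Of 14 genes listed as partners of the ER selenoproteins, 11 were measured. With Dox 4 rose and none fell, beside 4.42% and 2.01% of all genes. The 4 that rose encode the membrane machinery that removes misfolded proteins from the ER. They were Derl1, by 0.28 (limma adjusted p = 0.025), Derl2, by 0.70 (0.0018), the ubiquitin ligase Syvn1, by 0.58 (0.0043), and its cofactor Sel1l, by 0.96 (0.0038). With Dox+4μ8c against untreated cells Sel1l alone passed, at 0.69 (adjusted p = 0.023), where 1.17% of all genes were higher. Between Dox+4μ8c and Dox, Derl2 fell by 0.43 (adjusted p = 0.020) and Syvn1 by 0.40 (adjusted p = 0.030), where 1.61% of all genes fell. Derl1, at 0.01 with Dox+4μ8c and at -0.27 between Dox+4μ8c and Dox (adjusted p = 0.061), had changes close in size to those of Selenok. Uggt1, the partner of SELENOF, was at 0.40 with Dox (adjusted p = 0.10), with 0.65 in experiment 1 and 0.14 in experiment 2. The p97 gene Vcp was at 0.07. Without adjustment, 7 partners were higher with Dox and 2 lower at p under 0.05, beside 11.2% and 8.44% of all genes. The lower ones were the calcium pump Atp2a3, at -0.17 (adjusted p = 0.12), and the calcium channel Ryr2, at -0.21 (adjusted p = 0.25), which was at 0.28 between Dox+4μ8c and Dox (adjusted p = 0.26).

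Several of these calls changed when an array was left out. Derl1 with Dox was lost without any 1 of the untreated and Dox+4μ8c arrays, at adjusted p of 0.079 to 0.14. Sel1l with Dox+4μ8c was lost without any 1 of the same 4 arrays, at 0.082 to 0.24, and Derl2 and Syvn1 between Dox+4μ8c and Dox were lost without either Dox+4μ8c array, at 0.12 to 0.46. Without the replicate block, Sel1l had an adjusted p of 0.079 with Dox and 0.22 with Dox+4μ8c, and Derl2 and Syvn1 had 0.12 and 0.086 between Dox+4μ8c and Dox. Other calls were gained, with Derl2 past the test with Dox+4μ8c without either Dox array (adjusted p = 0.021), Sel1l between Dox+4μ8c and Dox without the Dox array of experiment 1 (0.0078) and Derl1 there without the block (0.045).

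**Figure D4:**
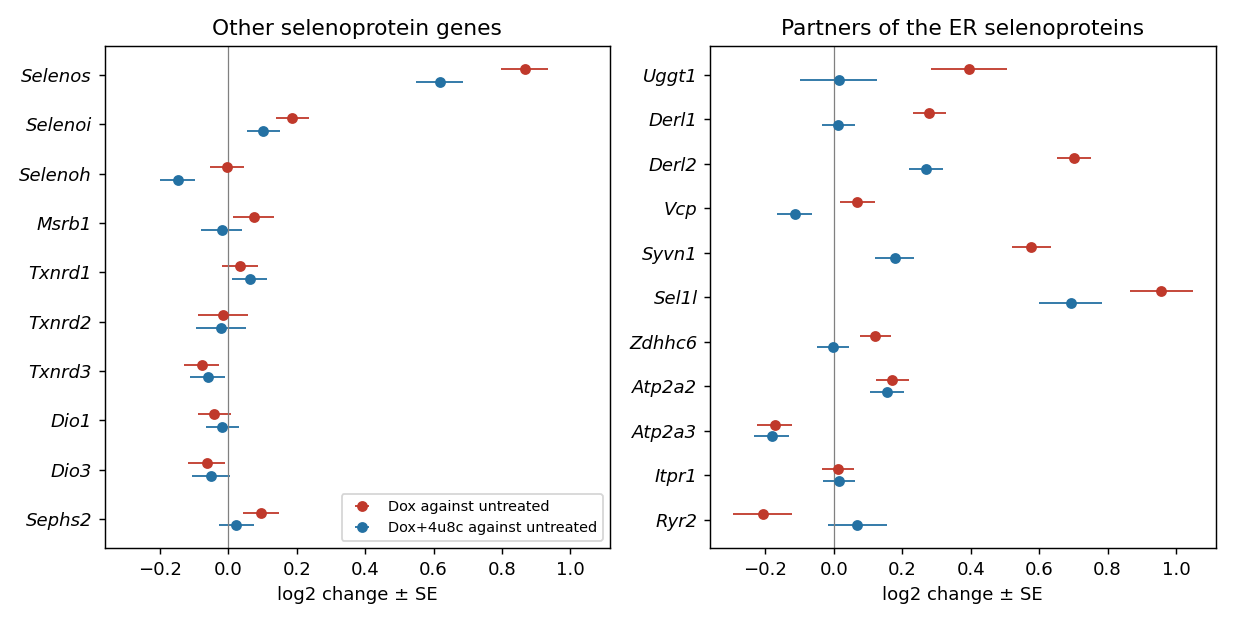
Log2 change ± SE (x axis) with Dox (red) and with Dox+4μ8c (blue), both against untreated cells, for the 10 measured other selenoprotein genes (left) and the 11 measured partners of the ER selenoproteins (right). Selenos stands at 0.87 and 0.62, apart from the other genes of its panel, and in the right panel Sel1l has the highest values, 0.96 and 0.69.

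The genes whose changes were nearest to those of Selenom were found by the root mean square difference over the 4 changes against untreated cells, Dox and Dox+4μ8c in each experiment. They were Smim14 (0.05 on the log2 scale), Tmed3 (0.09), Ssr1 (0.09), Sec23b (0.10) and Tmem39a (0.11). Their log2 changes were 0.78, 0.89, 0.71, 0.68 and 0.65 with Dox, and -0.06, -0.05, -0.0076, -0.02 and 0.04 with Dox+4μ8c. Ssr1 encodes a subunit of the translocon-associated complex of the ER, Sec23b a coat protein of the vesicles that leave the ER, and Tmed3 a cargo receptor of the same route. Likeness was measured over these 4 arrays against their 2 untreated arrays only.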

How the data were processed

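Total RNA (200 ng per sample, per the labels) of 6 samples was hybridized to Affymetrix 3′ IVT rat arrays. The deposited values are log2 signals that the authors made with RMA, which the submitters' processing notes name with no version. Values lie around 0: the 3 arrays had a median of 0 for 100% of probesets in experiment 1 but for 0.836% in experiment 2, where the centring may have used a further array that was not analysed here. Precision is limited by the number of arrays.

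Of 25476 probesets, 17978 had 1 symbol in the platform annotation and were averaged to 12603 genes, without a filter, while 52 controls, 7068 probesets without a symbol and 378 with several were left out. Symbols matched RefSeq's throughout. Genes were fitted with limma 3.58.1 in R 4.3.3 (lmFit, eBayes, 3 groups and the experiment as a replicate block, 2 residual and 4.25 prior degrees of freedom), with two-sided p adjusted by Benjamini-Hochberg over all genes. The block was used because offsets differ between the experiments and the study ran 2 independent experiments. The pairing rests on the replicate number. The deviations of same-numbered arrays from the mean of their group had r of 0.03 to 0.10 across genes, which are not independent replicates. Values that lie around 0 within each experiment have lost much of what same-numbered arrays share. The r therefore cannot show whether the arrays were paired. The p-values measure the spread between these arrays. Figures and counts used Python 3.11.15, numpy 2.4.6, pandas 2.3.3 and matplotlib 3.10.9. The fit was tested on simulated data.

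The members and lists were chosen with earlier results of these data known. Named genes were all members, all other selenoprotein genes, the genes of each further list that passed or up to 4 with the smallest p, and the 5 nearest to Selenom. Further genes (Pstk, Sepsecs, Secisbp2, Eefsec, Sephs1, Trnau1ap, Secisbp2l, Atp2a3, Ryr2, Uggt1, Vcp and Scly) were named after their values were seen. Selenoo, Selenov, Dio2, Gpx2, Gpx5, Gpx6, Prdx1, Uggt2, Derl3 and Adcyap1 had no probeset with that single symbol. Of the markers, 9 of 11 β-cell, 2 of 4 α-cell, 0 of 2 δ-cell, 2 of 4 acinar, 1 of 5 fibroblast and 1 of 4 macrophage genes were measured. Alternatives were no replicate block, medians of probesets, single probesets, probesets with several symbols, centred arrays, averaged linear folds, a robust variance prior, each experiment alone, each array left out and, chosen after seeing the data, probesets at 0 throughout experiment 1 left out.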

Additional observations from a re-analysis of the deposited data

How the results depend on the processing

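The rise of Selenom with Dox kept its call in every alternative with a test that kept all arrays. Its log2 changes were 0.69 to 0.89 as arrays were left out. With no replicate block in the model, which ignores the pairing by experiment, the calls of all 10 members stood, and Selenom had an adjusted p of 0.021 with Dox and 0.025 between Dox+4μ8c and Dox. Without the block, the genes of the other lists that were higher went from 7 to 4 with Dox and from 3 to 0 with Dox+4μ8c, and those lower between Dox+4μ8c and Dox from 2 to 1.

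Leaving out 1 array at a time gave 1 to 2 members higher with Dox and 0 to 2 lower between Dox+4μ8c and Dox. For the other lists it gave 0 to 2 genes lower with Dox (Ryr2 and Secisbp2l, without the Dox array of experiment 1), 0 to 5 higher with Dox+4μ8c (5 without either Dox array, 0 without either Dox+4μ8c array or the untreated array of experiment 1), and, between Dox+4μ8c and Dox, 0 to 2 higher and 0 to 4 lower. Centring each array on its median, or leaving out the probesets at 0 throughout experiment 1, gave 1 member lower with Dox, Selenow, in place of 0. With single probesets, 0 members and 0 genes of the other lists were lower between Dox+4μ8c and Dox, and 0 of the other lists were higher with Dox+4μ8c. Without the probesets at 0 the ER mean minus the peroxidase mean was 0.23 with Dox, -0.013 with Dox+4μ8c and -0.24 between them. As arrays were left out the last was -0.22 to -0.20. The cause of these changes was not tested.

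Single genes with changes near 0 turned sign. With each array centred, Selenop with Dox was at -0.0039 and Txnrd2 between Dox+4μ8c and Dox at 0.0016. Ranges that crossed 0 as single arrays were left out were, with Dox, those of Selenot (-0.078 to 0.042), Selenop (-0.054 to 0.061), Gpx4 (-0.0037 to 0.14), Selenoh (-0.046 to 0.040), Msrb1 (-0.0098 to 0.16), Txnrd1 (-0.0084 to 0.077), Txnrd2 (-0.13 to 0.10), Dio3 (-0.13 to 0.0044), Prdx5 (-0.096 to 0.0034) and Gpx8 (-0.0054 to 0.063). With Dox+4μ8c they were those of Selenom (-0.11 to 0.062), Selenof (-0.096 to 0.086), Selenon (-0.018 to 0.069), Gpx1 (-0.0094 to 0.18), Gpx4 (-0.070 to 0.17), Msrb1 (-0.076 to 0.037), Txnrd2 (-0.11 to 0.066), Dio1 (-0.047 to 0.011), Dio3 (-0.12 to 0.017), Sephs2 (-0.032 to 0.080) and Derl1 (-0.021 to 0.047). Between Dox+4μ8c and Dox they were those of Selenon (-0.086 to 0.013), Gpx1 (-0.081 to 0.043), Gpx4 (-0.14 to 0.097), Txnrd1 (-0.021 to 0.077), Txnrd2 (-0.12 to 0.11), Txnrd3 (-0.035 to 0.070), Dio1 (-0.0088 to 0.054) and Dio3 (-0.028 to 0.053).

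Because values lie around 0 for each probeset and 6487 probesets are at 0 on every array of experiment 1, signal over background, detection and saturation could not be judged. With 2 arrays per group, calls close to the threshold moved with single arrays. A fit without 1 array leaves 1 array in that group, and its p holds no spread within the group.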

Other observations

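Probesets at exactly 0 on all 3 arrays of experiment 1 were 25.5% of all probesets, and every probeset of a gene was at 0 for 18.1% of all genes. This held for 2 of the 10 members, Gpx1 and Selenon, 2 of the other 10 selenoprotein genes, Msrb1 and Dio1, 4 of 14 genes of selenocysteine synthesis and selenium supply, 1 of 7 peroxidase relatives and 0 of 11 partners of the ER selenoproteins. Among cell markers it held for 0 of 9 β-cell, 1 of 2 α-cell, 2 of 2 acinar, 1 of 1 fibroblast and 0 of 1 macrophage genes. These counts were not tested.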
